A study of Mus musculus with 15 samples.

Results

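Cdkn1a, the gene of the cell cycle inhibitor p21, was described together with the best known target genes of the transcription factor p53 in the liver of mice fed β-cryptoxanthin, a carotenoid of citrus fruit. The genes chosen were Cdkn1a, Gadd45a, Gadd45b, Gadd45g, Mdm2, Ccng1, Btg2, Phlda3, Bax and Trp53inp1, and all probe sets that carry one of these symbols in the array's annotation were taken. Of the 10 genes, 9 were measured, out of 18194 genes with a probe set of their own on the array, and they had 18 probe sets. The signal of Bax was not analysed here. The genes were selected on the low signals of Cdkn1a and Gadd45b in the β-cryptoxanthin group against the CL group. Every value of the members in that comparison is therefore a description, and adjusted p values of it are given for other genes only.

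The mice were male and of the C57BL/6J strain, 8 weeks old at the start, and ate their diets for 12 weeks. The CL+CX group ate the CL diet with β-cryptoxanthin, the CL group ate a chow to which cholesterol (1.25%), cocoa butter (60%) and sodium cholate (0.5%) were added, and the NC group ate the plain CRF-1 chow. Each group had 5 mice and each mouse 1 array of its liver RNA, so replicates are animals. The β-cryptoxanthin in the CL+CX diet was 0.003% by the treatment text and the methods, and 0.005% by the sample titles. Cholate was in the diets of both the CL+CX and the CL mice, and the additions took the place of part of the chow. The differences of either group from NC are thus those of fat, cholesterol, cholate and less chow together, and in CL+CX of β-cryptoxanthin as well.

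p53 is a transcription factor that is kept scarce by Mdm2, the ubiquitin ligase that marks it for breakdown, and that accumulates when DNA is damaged or a cell is stressed. Bound as a tetramer to a response element in DNA, it turns on genes that stop the cell cycle, repair DNA or start apoptosis. Several of its targets are also switched on without p53, by growth factor, stress, glucocorticoid, FOXO or circadian signals, and in liver the p21 and GADD45 genes respond to feeding, injury and regeneration.

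The response element consists of a pair of like blocks of 10 bases. RefSeq promoter windows of 300 bases (250 before and 50 after a transcription start, GRCm38.p6) were searched for the p53 response element, as 20 bases without a spacer and with at most 1 mismatch to the consensus, which reads alike on both strands. A match was found in 29 of 32851 windows (0.0883%), and in 2 of the 10 windows of the members, those of Cdkn1a at its upstream start and of Ccng1. The 250 bases before these starts are shown because both genes differed from NC in the results below, with the matching 20 bases in capitals.
Cdkn1a, chr17:29090729-29090978, plus strand: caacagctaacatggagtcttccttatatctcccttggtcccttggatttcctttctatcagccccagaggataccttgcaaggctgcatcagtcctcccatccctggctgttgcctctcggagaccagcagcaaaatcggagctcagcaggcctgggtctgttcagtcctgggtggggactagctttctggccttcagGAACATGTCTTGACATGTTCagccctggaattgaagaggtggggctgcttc
Ccng1, chr11:40755287-40755536, minus strand: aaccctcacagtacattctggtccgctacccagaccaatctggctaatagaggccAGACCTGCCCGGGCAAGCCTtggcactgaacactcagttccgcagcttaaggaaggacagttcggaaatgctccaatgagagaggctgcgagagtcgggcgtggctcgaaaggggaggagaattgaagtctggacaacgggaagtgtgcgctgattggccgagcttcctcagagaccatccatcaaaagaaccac
The match lay at positions -51 to -32 from the start in Cdkn1a and at -195 to -176 in Ccng1. The best 20 bases in the remaining 8 windows of the members, which include a second start of Cdkn1a and the start of Bax and none of Trp53inp1, had 3 to 5 mismatches, and 6.29% of all windows held a run with at most 3. A match is a string of letters, and elements outside these windows were not searched.

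Signals below are probe set intensities after all arrays had been brought to the same 75th percentile. A probe set was tested when it lay at or above the array median on all 5 arrays of at least 1 group, which left 20342, among them 16 of the 18 of the members. The other 2 were 1 probe set of Mdm2 (1457929_at), below the array median on every array, and 1 of Trp53inp1 (1416927_at), above it on 1 of 5 CL+CX, 3 of 5 CL and 4 of 5 NC arrays. Differences are of log2 signal with the standard error of the limma fit, and a probe set was called changed at an adjusted p under 0.05. In whole liver, fewer cells of a type and less RNA per cell cannot be told apart. The CL+CX and CL mice entered the comparison that led to the choice of Cdkn1a and Gadd45b, so the tests against NC are not independent support for either, and the comparisons share mice with each other.

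The p21 protein, encoded by Cdkn1a, binds cyclin-dependent kinases and PCNA and holds cells in the G1 phase. With its brighter probe set (1424638_at), the signal of Cdkn1a was 40.8, 50.9, 33.3, 58.9 and 35.0 in the CL+CX livers, against 185, 237, 167, 334 and 188 in the CL livers, and the NC livers had 238, 424, 107, 129 and 101. All 5 CL+CX livers lay below every CL and every NC liver, while the CL and NC livers overlapped. The second probe set (1421679_a_at) gave 60.2, 40.9, 30.5, 94.3 and 43.8 in CL+CX, 155, 242, 153, 254 and 208 in CL and 166, 376, 94.2, 161 and 173 in NC. Here the highest CL+CX liver, replicate 4, just reached the lowest NC liver, replicate 3.

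Cdkn1a was lower in CL+CX than in NC livers, by -1.99 ± 0.34 (log2 difference ± SE) at 1424638_at and by -1.81 ± 0.33 at 1421679_a_at, which is 3.97-fold and 3.50-fold lower (adjusted p = 0.0030 and 0.00433). These differences were the 28th and the 37th lowest of the 20342 tested. CL and NC livers differed by 0.34 ± 0.34 and 0.18 ± 0.33 (adjusted p = 0.559 and 0.771), within the spread of the mice. In the comparison that led to the choice, CL+CX minus CL, the difference was -2.33 ± 0.34 at 1424638_at and -1.99 ± 0.33 at 1421679_a_at, or 5.04-fold and 3.97-fold lower in CL+CX. The order of the means was thus CL, NC and CL+CX, with CL and NC not separated.

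The spread of Cdkn1a was largest in NC at both probe sets. On the log2 scale its SD at 1424638_at was 0.35 in CL+CX, 0.40 in CL and 0.89 in NC livers (n = 5 each), the last because NC replicates 1 and 2 had 238 and 424 where the other 3 NC livers had 101 to 129. At 1421679_a_at the SD was 0.62 in CL+CX, 0.35 in CL and 0.71 in NC livers, so there CL+CX was nearly as wide as NC. These variances were not compared by a test.

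**Figure D1:**
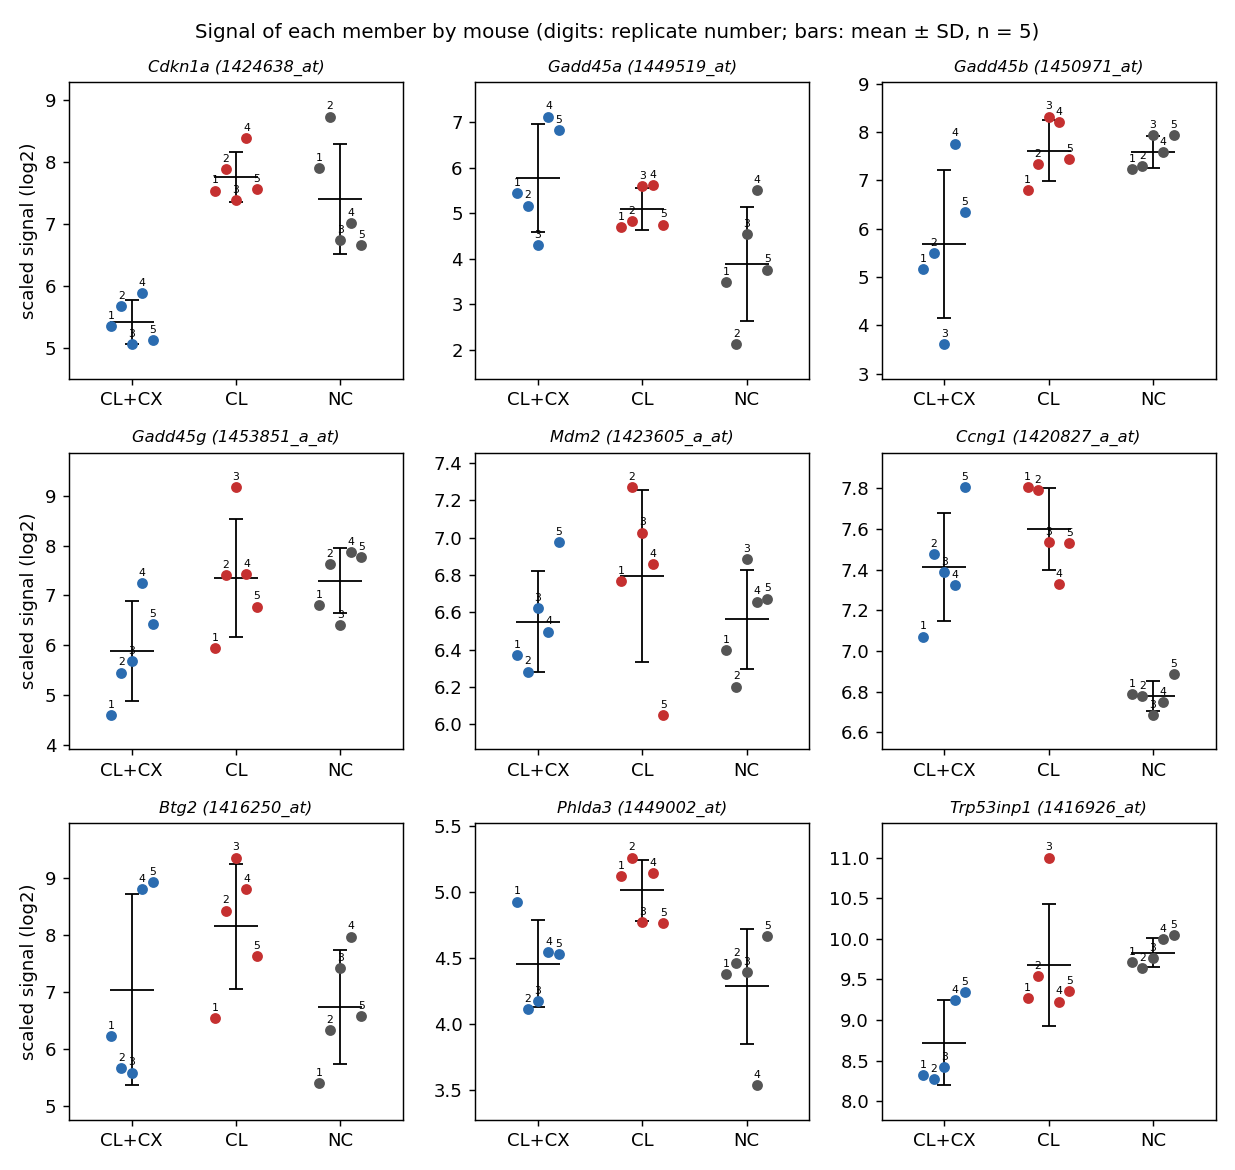
Scaled signal (log2, vertical axis) of 1 probe set for each of the 9 genes measured, by diet from left to right (CL+CX, CL and NC), with 1 point per mouse, its replicate number above it, and black bars for the mean ± SD of 5 mice. Cdkn1a was low in all 5 CL+CX livers (33.3 to 58.9 before log2), Ccng1 lay above all NC livers in both CL+CX and CL, and Gadd45b, Gadd45g and Btg2 spread widely within the CL+CX group.

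Across the members, most differences of CL from NC were positive. In CL minus NC, 3 of the 16 probe sets passed the test, all higher in CL, against 12.2% of all probe sets tested, 5.9% higher and 6.35% lower. They belonged to Ccng1 and Phlda3, and of the 16 differences 14 were positive and 2 negative, with a median of 0.30 against -0.09 over all probe sets tested. Of the same probe sets, 6 of 16 passed in CL+CX minus NC, against 9.79% of all, with 2 higher and 4 lower in CL+CX, where 4.81% and 4.98% of all probe sets were. The 2 higher were of Ccng1 and the 4 lower were both probe sets of Cdkn1a and 1 each of Gadd45b and Trp53inp1, and the median difference was -0.07 against -0.03 over all. Cdkn1a and Gadd45b were chosen for low CL+CX signals, and Ccng1 and Cdkn1a each enter this count with 2 probe sets. Nothing about the members as a set is therefore read from it. Between CL+CX and CL, 15 of 16 differences (CL+CX minus CL) were negative with a median of -0.61 against 0.04 over all, and 2 of 16, both of Cdkn1a and lower in CL+CX, were past the threshold that 3.13% of all probe sets passed (1.58% higher and 1.55% lower). That comparison led to the choice, and nothing is read from its count.

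**Figure D2:**
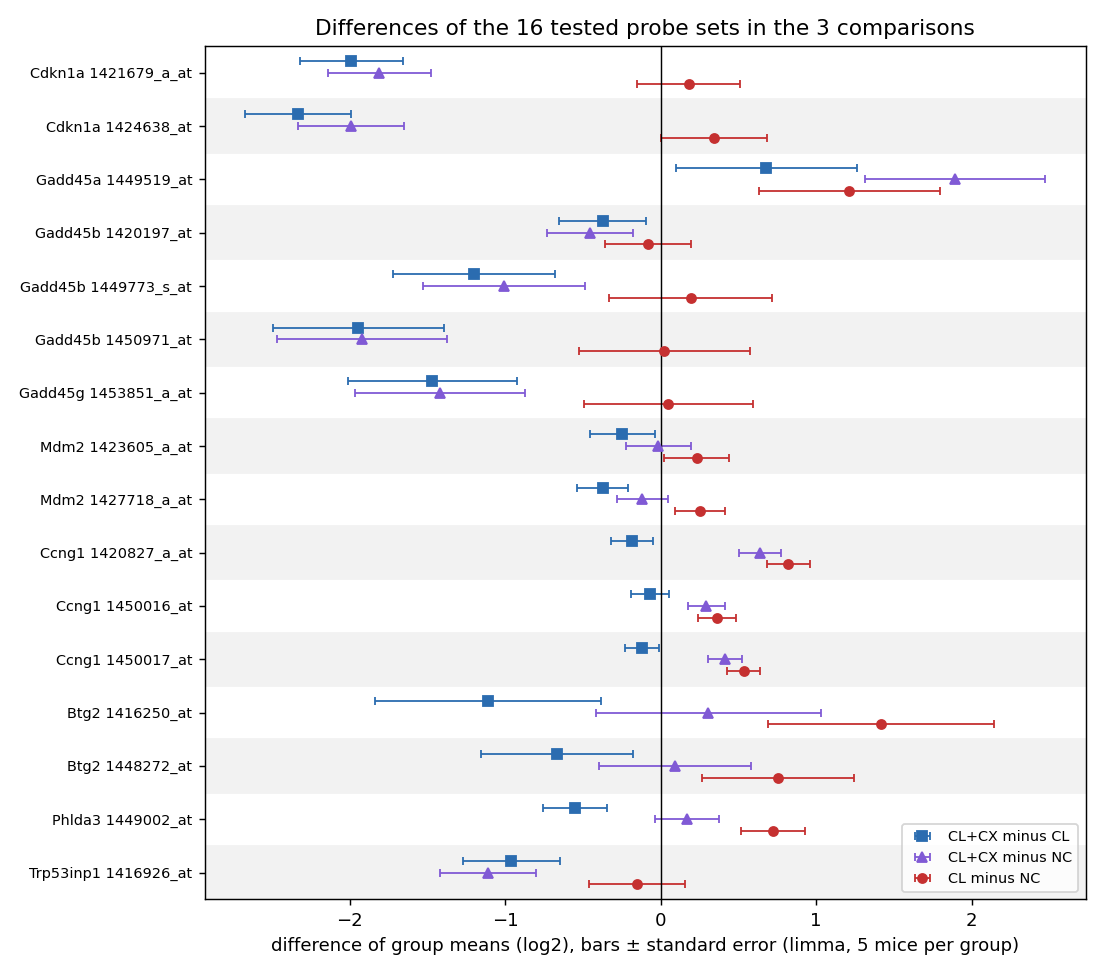
Difference of group means (log2, horizontal axis, bars ± SE of the limma fit, 5 mice per group) for the 16 tested probe sets in CL+CX minus CL (squares), CL+CX minus NC (triangles) and CL minus NC (circles). The Ccng1 probe sets lie right of 0 in both comparisons with NC, and both Cdkn1a probe sets lie near -2 in both comparisons of CL+CX, near -1.81 to -2.33.

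Ccng1 encodes cyclin G1, a p53 target that recruits a phosphatase to Mdm2. At 1420827_a_at its signal was 134, 178, 168, 160.3 and 224 in CL+CX livers and 224, 222, 186, 161 and 185 in CL livers, against 110.4, 109.8, 103, 107 and 118 in NC livers. Every CL+CX and every CL liver lay above every NC liver, and the CL+CX and CL livers overlapped. Ccng1 rose by 0.82 ± 0.14 in CL and by 0.64 ± 0.14 in CL+CX relative to NC, 1.77-fold and 1.55-fold (adjusted p = 0.00128 and 0.00945), and the second missed the threshold when no filter was applied (adjusted p = 0.0513).

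A second Ccng1 probe set, 1450017_at, had a mean of 64.6 ± 5.58 in CL+CX, 70.1 ± 5.44 in CL and 48.5 ± 4.85 in NC livers (SD, n = 5 each), again without overlap with NC. Its differences were 0.53 ± 0.11 in CL minus NC and 0.42 ± 0.11 in CL+CX minus NC (adjusted p = 0.00511 and 0.0242), the second lost without CL+CX replicates 1, 2 or 5 or NC replicates 2 or 4 (adjusted p = 0.0503 to 0.0606). The third, 1450016_at, gave 0.36 ± 0.12 and 0.30 ± 0.12 in the same comparisons and missed the threshold (adjusted p = 0.0625 and 0.129). Between CL+CX and CL the differences of the 3 probe sets were -0.19 ± 0.14, -0.12 ± 0.11 and -0.07 ± 0.12. Ccng1 was thus above NC in both groups on the CL diet, unlike Cdkn1a, whose mean in CL+CX lay below NC.

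Phlda3, whose protein blocks AKT at the membrane, was the other member that rose with the CL diet. Its signal was 34.7, 38.3, 27.3, 35.4 and 27.2 in CL livers against 20.8, 22, 21, 11.6 and 25.4 in NC livers, with no overlap, and CL+CX livers had 30.4, 17.4, 18.1, 23.4 and 23.1. The CL minus NC difference was 0.72 ± 0.21, or 1.65-fold (adjusted p = 0.0316), and it missed the threshold without NC replicate 4 (0.54, adjusted p = 0.0583) and also without CL replicates 1 or 4 or NC replicates 1 or 3 (adjusted p = 0.0518 to 0.0676). The CL+CX mean differed from NC by 0.17 ± 0.21 (adjusted p = 0.631) and from CL by -0.55 ± 0.21. The order was CL, CL+CX and NC, and CL+CX and NC overlapped. These signals are low, with array medians of 11.3 to 13.5 after scaling.

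In all 3 comparisons Mdm2, the target that feeds back on p53, overlapped between the groups. Its signal at 1423605_a_at averaged 95.1 ± 19 in CL+CX, 115 ± 32.4 in CL and 95.8 ± 17.2 in NC livers (SD, n = 5 each), with differences of 0.23 ± 0.21 in CL minus NC, -0.01 ± 0.21 in CL+CX minus NC and -0.24 ± 0.21 in CL+CX minus CL. The probe set 1427718_a_at gave 0.25 ± 0.16, -0.12 ± 0.16 and -0.37 ± 0.16. Against NC the adjusted p values lay between 0.343 and 0.977.

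The GADD45 proteins bind p21, PCNA and the kinase MTK1, and link stress to the p38 and JNK pathways. The 3 genes did not move alike. Gadd45b had a signal of 35.9, 45.2, 12.1, 217 and 80.8 at 1450971_at in CL+CX livers, 111, 162, 319, 294 and 173 in CL livers and 150.1, 157, 244, 191 and 244 in NC livers. CL+CX replicates 1, 2, 3 and 5 lay below all CL and NC livers, while replicate 4 lay among them.

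Gadd45b was lower in CL+CX than in NC livers by -1.92 ± 0.55, a 3.78-fold difference (adjusted p = 0.0385), and differed by 0.02 ± 0.55 between CL and NC (adjusted p = 0.983). The call was lost when any of CL+CX replicates 1, 2 and 3 or any NC liver was left out (adjusted p = 0.0602 to 0.0817). CL+CX replicate 3 lay under its array median, so this probe set was tested only through CL and NC, where it was high. Without that liver the difference from NC was -1.40, so its size is uncertain. The CL+CX minus CL difference was -1.94 ± 0.55. The probe sets 1449773_s_at and 1420197_at had smaller differences from NC in CL+CX, -1.01 ± 0.52 and -0.45 ± 0.28, which missed the threshold (adjusted p = 0.234 and 0.317).

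Gadd45g had the same direction. Its signal was 24.3, 43.7, 51.6, 151 and 85.7 in CL+CX livers, 61.8, 171, 578, 172 and 109.5 in CL livers and 112, 198, 85.0, 235 and 218 in NC livers, so that the groups overlapped. The differences were -1.42 ± 0.55 in CL+CX minus NC (adjusted p = 0.109), 0.05 ± 0.55 in CL minus NC (adjusted p = 0.965) and -1.47 ± 0.55 in CL+CX minus CL. CL replicate 3 carried the highest value, and without it the CL minus NC difference was -0.41.

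Gadd45a had the opposite direction, and was the only member with a positive difference in CL+CX minus CL. Its signal was 43.7, 36.0, 19.8, 139.9 and 114 in CL+CX, 25.8, 28.3, 48.5, 49.0 and 26.9 in CL and 11.2, 4.32, 23.2, 45.4 and 13.5 in NC livers, and all groups overlapped. Relative to NC the difference was 1.90 ± 0.58 in CL+CX, just short of the threshold (adjusted p = 0.0503), and 1.22 ± 0.58 in CL (adjusted p = 0.193). NC replicates 1 and 2 lay under the array median, where a signal is least certain. The CL+CX minus CL difference was 0.68 ± 0.58.

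Btg2 encodes an antiproliferative protein that promotes the removal of poly(A) tails, and it is also an immediate early gene. Its signal at 1416250_at was 75.2, 50.8, 48.1, 449.8 and 489 in CL+CX livers, 93.0, 346, 660.2, 449 and 199 in CL livers and 42.3, 80.4, 171, 252 and 95.2 in NC livers. The CL+CX group split into 3 mice at 48.1 to 75.2 and 2 mice at 449.8 and 489, on both sides of the NC mean. The difference was 1.42 ± 0.73 in CL minus NC (adjusted p = 0.225), 0.31 ± 0.73 in CL+CX minus NC (adjusted p = 0.826) and -1.11 ± 0.73 in CL+CX minus CL. The second probe set, 1448272_at, gave 0.76 ± 0.49, 0.09 ± 0.49 and -0.66 ± 0.49.

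Trp53inp1 encodes a nuclear protein that promotes p53 phosphorylation and autophagy. At 1416926_at its signal was 319.8, 309.8, 342, 607 and 651 in CL+CX livers against 837, 796, 872, 1022 and 1057 in NC livers, with no overlap, and CL livers had 618, 745, 2053, 599.6 and 656. Trp53inp1 was lower in CL+CX than in NC by -1.11 ± 0.31, a 2.16-fold difference (adjusted p = 0.0348). This call was lost without any of CL+CX replicates 1 to 3 or any NC liver (adjusted p = 0.0538 to 0.0843). CL differed from NC by -0.15 ± 0.31 (adjusted p = 0.795), a value set by CL replicate 3, since the other 4 CL livers lay below all NC livers and the difference without it was -0.48. The CL+CX minus CL difference was -0.96 ± 0.31.

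Groups without overlap were counted as well. All CL livers were higher than all NC livers for 3 of the 16 probe sets (4.92% of all tested were) and lower for 0 (5.21% of all). All CL+CX livers were higher than all NC livers for 2, both of Ccng1, against 5.61% of all. They were lower for 2, of Cdkn1a and Trp53inp1, against 8.54%. Relative to CL, 0 were higher in all CL+CX livers (3.01% of all) and 2, both of Cdkn1a, were lower (2.02% of all), which was the pattern behind the choice.

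The members that varied most between mice of 1 diet shared their high and low mice. CL+CX replicates 4 and 5 had the highest signals of their group for Gadd45a, Gadd45b, Gadd45g, Btg2 and Trp53inp1, and CL replicate 3 had the highest of its group for Gadd45g, Btg2, Trp53inp1 and, at 1450971_at but not at its other probe sets, Gadd45b. The mean over the 11 tested immediate early genes (Fos, Jun, Egr1 and the like, which respond within minutes to growth factors and stress), as the log2 difference from the NC mean, was -0.67, -0.84, -1.23, 1.45 and 1.27 in the CL+CX livers, 0.13, 1.15, 1.28, 1.57 and 0.97 in the CL livers and -0.76, -0.73, 0.37, 0.69 and 0.43 in the NC livers. CL+CX replicates 4 and 5 thus also had high immediate early genes, and NC replicates 1 and 2, which had the highest Cdkn1a of the NC group at 1424638_at (though not replicate 1 at 1421679_a_at), had low ones. Cdkn1a was 58.9 and 35.0 in CL+CX replicates 4 and 5 at 1424638_at and 94.3 and 43.8 at 1421679_a_at, replicate 4 being the highest of its group at both. The part of the immediate early genes in the members' values was not tested.

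**Figure D3:**
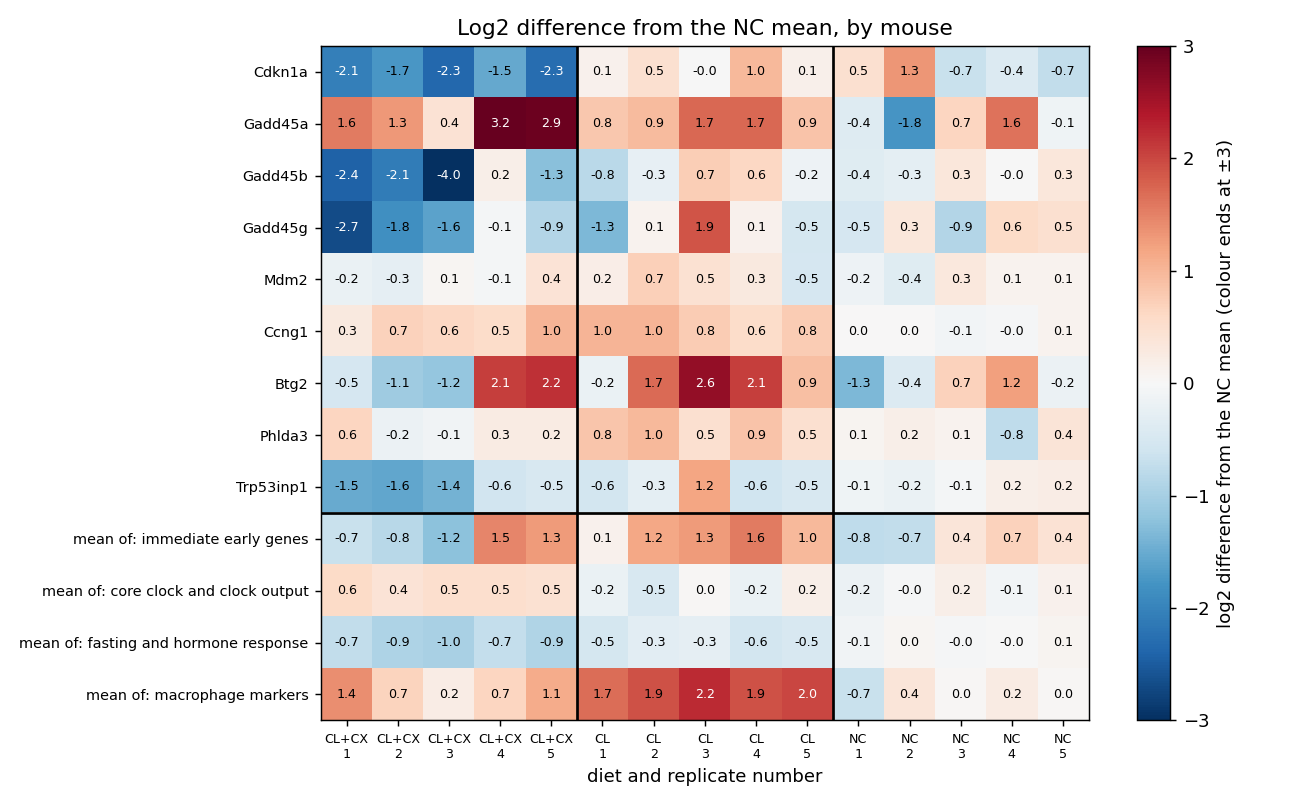
Log2 difference from the NC mean (colour and printed value) of 9 members, above the line, and of the mean of 4 gene lists, below it, for each mouse, with the CL+CX, CL and NC livers from left to right. CL+CX replicates 4 and 5 were high in Btg2, Gadd45a and the immediate early genes, Cdkn1a was low in all 5 CL+CX livers, and the macrophage markers were highest in CL.

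Other features of the livers moved with the diets. The core clock genes and their outputs differed between CL+CX and CL in 12 of 17 tested, 8 higher and 4 lower in CL+CX (1.48% and 1.79% of all genes). The 12 included Dbp, a clock output factor, at 4.12 ± 0.26 (adjusted p = 1.3e-06). Per3, a clock repressor, differed by 2.57 ± 0.41 and Nr1d1 (REV-ERBα), also a repressor, by 2.62 ± 0.68 (adjusted p = 0.0078 and 0.049). Per3 and Nr1d1 were dim in CL livers, at 2.67 to 16.4 and 3.31 to 27.1, where array medians were 11.4 to 13.2. Both were tested only through the CL+CX group, where they were high, so their sizes and p values are uncertain. The mean of the clock list was 0.42 to 0.57 in CL+CX livers, -0.49 to 0.18 in CL livers and -0.19 to 0.18 in NC livers. This mean adds genes that rose and genes that fell, so it does not stand for a rise of all of them.

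Between CL and NC 1 clock gene of 17 was higher and 2 were lower in CL (7.2% and 6.78% of all genes). In CL+CX minus NC 8 were higher and 3 lower of 17 (5.12% and 4.89% of all genes). Genes that rise in fasting or with FOXO factors and glucocorticoids were lower in CL+CX than in NC in 9 of 18 and in none higher, such as Pdk4, which spares glucose, at -2.53 ± 0.37 and Igfbp1, an insulin-repressed secreted protein, at -2.10 ± 0.38 (adjusted p = 0.0011 and 0.0039). Their mean was -0.97 to -0.72 in CL+CX, -0.55 to -0.27 in CL and -0.10 to 0.07 in NC livers, and 3 of 18 were lower in CL+CX than in CL. Their part in the values of Cdkn1a, Gadd45b and Trp53inp1 was not tested.

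Cell markers changed too. Of 13 macrophage genes tested, 13 were higher in CL than in NC (7.2% of all genes were) and 10 were lower in CL+CX than in CL (1.79% of all). The sum over all 14 listed was 2467 to 5716 in CL+CX, 7641 to 8844 in CL and 1205 to 2668 in NC livers. Of 10 genes of liver sinusoidal endothelium, 2 were lower in CL+CX than in NC by limma (4.89% of all genes were), 7 had an unadjusted p under 0.05 and the methods' test called 0, and their sum was 629 to 1266 in CL+CX, 1086 to 1448 in CL and 1050 to 1307 in NC livers. The hepatocyte markers summed to 39201 to 46659 in CL+CX, 36511 to 58695 in CL and 52562 to 65962 in NC livers. All 8 hepatocyte markers measured were above the array median on some array of every group, and of 10 T and B cell markers 3 stayed below it on all arrays. The β-actin 3′ to 5′ difference, a measure of RNA integrity, was 1.07 ± 0.101 in CL+CX, 0.82 ± 0.0968 in CL and 0.94 ± 0.0859 in NC arrays (log2, SD, n = 5 each). All CL+CX arrays (0.949 to 1.17) lay above all CL arrays (0.699 to 0.945). With this difference as a covariate, 1 of all probe sets was called in CL+CX minus CL, where 637 were without it. At most 1 of the calls given in this report for that comparison was thus kept. The part of these in the members' values was not tested.

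To place the members within the p53 pathway, genes that act on p53 were listed, among them its kinases (Atm, Atr, Chek2), its inhibitors (Mdm4, Ppm1d) and its acetylation and ubiquitination factors. Of the 14 tested, 0 passed the limma test in any comparison, while 6 in CL minus NC, 5 in CL+CX minus NC and 4 in CL+CX minus CL had an unadjusted p under 0.05, and the methods' test called 0, 1 and 1. Trp53, the gene of p53 itself, was not among the 14. The largest differences were 0.73 ± 0.26 for Trp53bp1, which binds at DNA breaks, in CL minus NC (adjusted p = 0.078) and -0.78 ± 0.25 for Trp73, a p53 relative, in CL+CX minus NC (adjusted p = 0.061). The list's median was -0.11 in CL minus NC, against -0.08 over all genes, and -0.07 in CL+CX minus NC, against -0.04.

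Genes listed as further direct targets of p53 were tested together, and whether each is a target in these livers was not tested. Of 29 genes, 2 rose and 1 fell in CL minus NC, 1 rose and 1 fell in CL+CX minus NC and 2 were lower in CL+CX than in CL, and the list's median was 0.07 in CL minus NC and 0.02 in CL+CX minus NC, against -0.08 and -0.04 over all genes. Over all genes 14.0% were called in CL minus NC, 10% in CL+CX minus NC and 3.27% in CL+CX minus CL. The methods' test called 0 of the 29 in each comparison, so the calls of Plk2, Polk, Ddit4 and Trp53inp2 given next were made by limma and lost under that test.

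Plk2, a kinase of the centrosome cycle, had a median signal of 49.9 (45.0 to 66.9) in CL+CX livers, 114 (65.3 to 144) in CL livers and 49.0 (36.5 to 60.2) in NC livers. It rose by 1.04 ± 0.21 in CL relative to NC (adjusted p = 0.0052), differed by 0.10 ± 0.21 between CL+CX and NC (adjusted p = 0.80) and was lower in CL+CX than in CL by -0.94 ± 0.21 (adjusted p = 0.029). Plk2 thus followed the order of Phlda3, with its high values in CL.

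Polk, a polymerase that copies past damaged bases, followed the order of Ccng1. Its median was 44.8 (38.9 to 46.1) in CL+CX, 45.8 (32.3 to 56.9) in CL and 27.4 (17.8 to 33.8) in NC livers, and it rose by 0.89 ± 0.19 in CL and by 0.80 ± 0.19 in CL+CX (adjusted p = 0.0082 and 0.019). Ddit4, an inhibitor of mTORC1 that glucocorticoids and hypoxia also induce, followed Cdkn1a. Its median was 53.4 (34.8 to 63.1) in CL+CX, 152 (58.7 to 204) in CL and 98.8 (77.4 to 213) in NC livers, with differences of -1.18 ± 0.33 from NC and -1.35 ± 0.33 from CL (adjusted p = 0.033 and 0.039). CL and NC livers differed by 0.17 ± 0.33 in Ddit4 (adjusted p = 0.78).

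Trp53inp2, a relative of Trp53inp1 that acts in autophagy, fell by 0.43 in CL (SE 0.12, adjusted p = 0.032). Genes of apoptosis in the same list, named here after their values were seen, missed the threshold. Pmaip1 (NOXA, which opposes MCL1) differed by 2.20 ± 0.79 and Apaf1, the scaffold of the apoptosome, by 0.86 ± 0.27 in CL minus NC (adjusted p = 0.084 and 0.051). The same genes differed by 0.60 ± 0.79 and 0.41 ± 0.27 in CL+CX minus NC (adjusted p = 0.67 and 0.35). Bbc3, Pidd1, Perp, Fas and Ei24, also of apoptosis, differed by 0.44, 0.27, 0.11, 0.10 and -0.38 in CL minus NC. Their adjusted p values were 0.080 to 0.80. Pmaip1 was dim, at 1.14 to 14.2 in NC and 0.99 to 25.9 in CL+CX livers. It was tested only through the CL group, where it was high, so the size of its differences is uncertain. Apaf1 lay at 7.43 to 20.9 in NC livers and was tested only through the groups on the CL diet, so its differences are uncertain too.

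**Figure D4:**
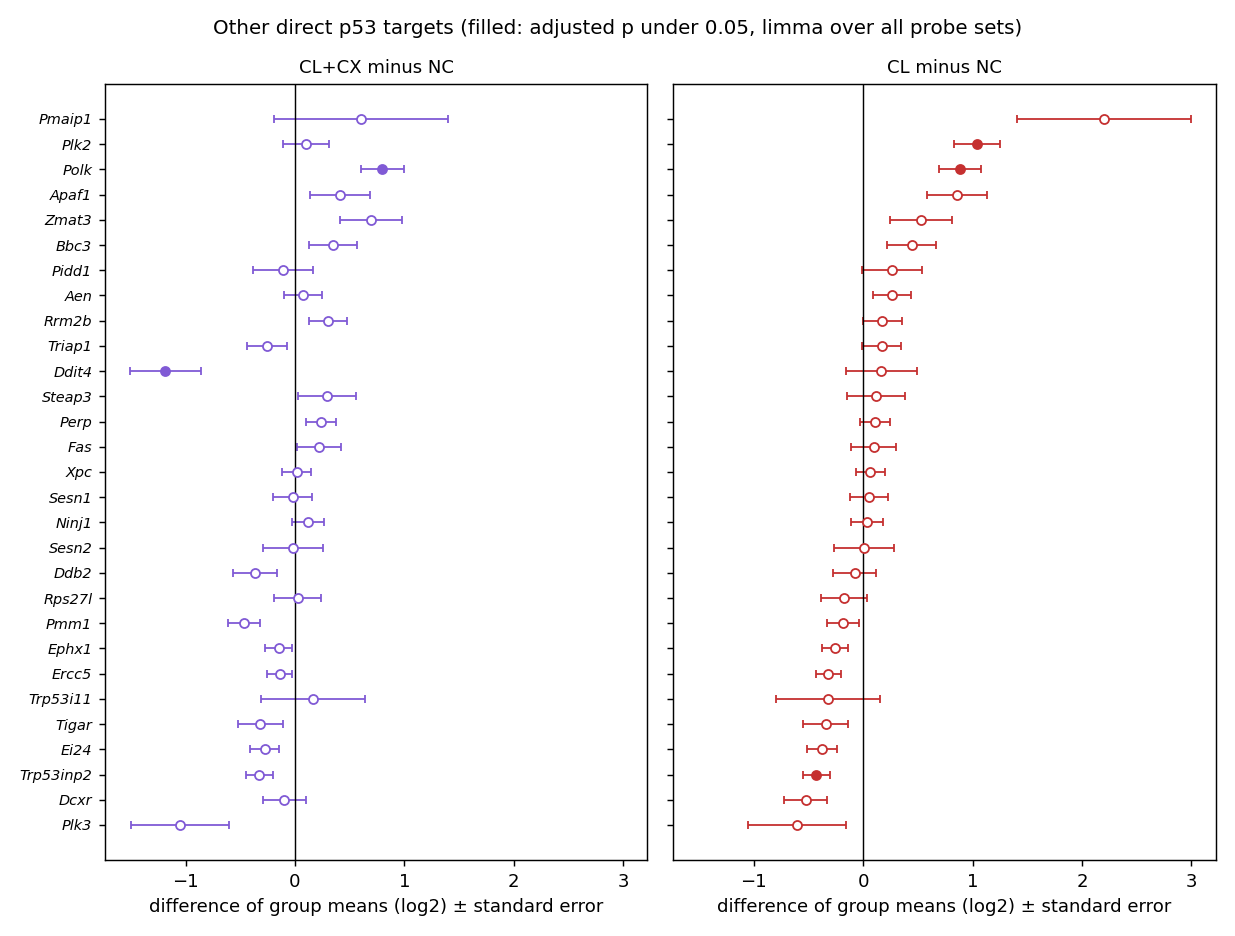
Difference of group means (log2, horizontal axis, bars ± SE of the limma fit) of 29 genes listed as further p53 targets, 1 row each in the order of their CL minus NC difference, for CL+CX minus NC (left) and CL minus NC (right), with filled points for an adjusted p under 0.05. Polk is filled in both panels, Ddit4 on the left only, and Plk2 and Trp53inp2 on the right only.

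The partners of p21 were examined next. Of 4 CDK inhibitor genes tested apart from Cdkn1a, 1 changed, Cdkn2c (p18), which was lower in CL+CX than in NC by -0.59 ± 0.17 (adjusted p = 0.040), a call lost under the methods' test. Among 10 genes of G1 cyclins, their kinases, PCNA and the RB family, 2 rose and 1 fell in CL and likewise in CL+CX relative to NC. Over all genes 14.0% and 10% were called in these comparisons. In CL+CX minus CL limma called 0 of the 10 (3.27% of all genes), 4 had an unadjusted p under 0.05 and the methods' test called 0.

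Ccnd1, the G1 cyclin D1, rose by 1.26 ± 0.33 in CL and by 1.20 ± 0.33 in CL+CX (adjusted p = 0.021 and 0.032), with medians of 126 (114 to 165) in CL+CX, 143 (46.4 to 237) in CL and 54.8 (49.5 to 66.3) in NC livers. Rbl1, the RB relative p107, rose by 1.66 ± 0.29 and 0.99 ± 0.29 (adjusted p = 0.0023 and 0.046), but its NC signals, 7.19 to 10.1, lay under the array medians and it was tested only through the CL group, so the size is uncertain. Ccnd3, cyclin D3, fell by 0.65 in CL and by 0.64 in CL+CX (SE 0.11 each, adjusted p = 0.0020 and 0.0038). Ccnd1 differed by -0.06 ± 0.33 between CL+CX and CL, while Cdkn1a differed by -2.33 ± 0.34.

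Most genes of S phase and mitosis were too dim to test, 8 of 20 measured being retained. Of these, Mcm3 and Mcm5, subunits of the replicative helicase, rose in CL by 0.83 ± 0.19 and 1.39 ± 0.39 (adjusted p = 0.0096 and 0.029). Mcm5 rose in CL+CX by 1.31 ± 0.39 (adjusted p = 0.045). In NC livers Mcm5 was dim, at 4.56 to 12.5, and Mcm3 lay at 10.7 to 20.7, where array medians were 11.7 to 13.0. Both were tested only through groups on the CL diet, where they were high, so the sizes of their rises are uncertain. The methods' test called 0 of the 8 in each comparison, so these rises were lost under it, and in CL+CX minus CL limma also called 0, with 0 at an unadjusted p under 0.05.

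Relatives and partners of the other members had single calls, where 10% of all genes were called in CL+CX minus NC and 3.27% in CL+CX minus CL. With so few genes per list, nothing is read from these counts. Of 7 genes of the kinase cascade downstream of GADD45, 1 was called, Map2k6 (MKK6, which activates p38). It rose in CL+CX relative to NC by 0.98 ± 0.21 (adjusted p = 0.0095). Btg1, a relative of Btg2 and 1 of 3 tested, was lower in CL+CX than in CL by -0.70 ± 0.14 (adjusted p = 0.022). Phlda1 rose in CL+CX by 1.48 ± 0.30 relative to NC and by 1.44 ± 0.30 relative to CL (adjusted p = 0.0068 and 0.022), where Phlda3 differed by 0.17 ± 0.21 and -0.55 ± 0.21, and the methods' test called neither Phlda1 difference. Ccng2 (cyclin G2), a FOXO target and 1 of 3 genes tested with it, was lower in CL+CX than in NC by -0.80 ± 0.16 (adjusted p = 0.0078), where Ccng1 was higher.

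The family of BCL2, to which Bax belongs, had 14 genes tested. Relative to NC, 2 were higher and 0 lower in CL, and 2 were higher and 1 lower in CL+CX. Over all genes 14.0% and 10% were called in these comparisons. Mcl1, an inhibitor of apoptosis, rose by 0.51 ± 0.12 in CL and 0.67 ± 0.12 in CL+CX (adjusted p = 0.014 and 0.0042). Bcl2 is not described, since it lay mostly below the array median in NC livers. Bid, which promotes apoptosis, rose in CL+CX relative to NC by 0.68 ± 0.13 and Bcl2l2 fell by 0.37 (SE 0.10), with adjusted p = 0.0047 and 0.035.

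Genes most like Cdkn1a over the 15 arrays were sought among the 10520 other tested genes, as a description of arrays that share 3 diets. The highest Pearson r with 1424638_at were those of Gars (glycyl-tRNA synthetase, r = 0.923), Zfp9 (0.873), Desi2 (0.867), Ccn2 (CTGF, a matrix-associated growth factor, 0.858) and Cry1 (a clock repressor, 0.854), where the median over all genes was 0.0084. For Gadd45b at 1450971_at they were Igfbp1 (0.831), Nsrp1 (0.828), Gfpt1 (0.827), Srms (0.817) and Dusp1 (0.811), the last an immediate early phosphatase of p38 and JNK. All 10 of these genes had a lower mean in CL+CX than in CL, from -0.26 for Nsrp1 to -1.76 for Igfbp1 on the log2 scale, a direction that their choice by likeness to Cdkn1a and Gadd45b favours.

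Finally, the genes with a p53 match in the promoter window were read in the same tests. Of the 29, 7 were tested. In CL minus NC, 3 were higher, Ccng1, Calhm2 at 0.83 ± 0.25 and Bank1, a scaffold of B cell signalling, at 0.62 ± 0.19 (adjusted p = 0.041 and 0.042 for the last 2), and 0 were lower, where 7.2% of all genes were higher and 6.78% lower. Relative to NC in CL+CX, Ccng1 was higher and Cdkn1a lower, so that the pair whose sequences are printed above moved in opposite directions relative to NC, and 5.12% and 4.89% of all genes were higher and lower. Relative to CL, 0 were higher in CL+CX and 2 lower, Cdkn1a and Bank1 (1.48% and 1.79% of all genes). Cdkn1a was chosen on this comparison, so nothing is read from that count.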

How the data were processed

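Liver RNA of 15 mice, 5 per diet, was measured with 1 GeneChip Mouse Genome 430 2.0 array each, and groups were taken from the sample labels. The authors summarised each probe set with MAS5, and deposited these as linear intensity that still differed in scale between arrays (array medians of 9.48 to 16.7), so dim genes are imprecise. To compare arrays, signals were multiplied so that every 75th percentile equalled 54.1. A floor of 1 replaced 11.3% of values before log2. Probe sets (20342, controls left out) with a signal at or above the array median on all arrays of at least 1 group were fitted with limma 3.58.1 in R 4.3.3 on the 3 diet means, with Benjamini-Hochberg adjustment over all of them and a threshold of 0.05. On simulated data with 200 changed probe sets per comparison with NC, the fit recovered most of them. The number of mice limits the precision. The methods' own test, Welch's comparison of the 3 diets with a Tukey step, was run as an alternative.

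The members and the gene lists were chosen with earlier results of these data known. All members were named with every probe set, up to 4 genes past the test from each list (by the brightest probe set of each gene), and the 5 genes most like Cdkn1a and Gadd45b. A list's mean per mouse is the average log2 difference from the NC mean. Alternatives were quantile normalization, unscaled signals, no filter or one at the 75th percentile, an offset of 16, a robust prior with a trend, a fit of 2 groups, replicate numbers as blocks, a covariate for the β-actin 3′ to 5′ difference, the mean over a gene's probe sets and each mouse left out. Promoter windows are RefSeq's on GRCm38.p6. Plots used Python 3.11.15, numpy 2.4.6 and matplotlib 3.10.9.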

Additional observations from a re-analysis of the deposited data

Results flagged for a closer look

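In 48 groups of 5 mice, 1 per tested probe set and diet, the highest or lowest mouse was compared with its nearest neighbour by Dixon's ratio on the log2 scale, and 2 stood apart where chance gives about 1 in 20. Phlda3 in NC replicate 4 had a signal of 11.6, the lowest of its group, with the next at 20.8. Trp53inp1 in CL replicate 3 had 2053, the highest, with the next at 745. Both values bear on results above, since the Phlda3 rise in CL missed the threshold without that NC mouse and the Trp53inp1 difference of CL from NC became -0.48 without that CL mouse.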

How the results depend on the processing

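Of the members' probe sets, 6 passed in CL+CX minus NC, and 2 did so with no filter, 3 with the β-actin covariate, and 3 to 7 with 1 mouse left out (3 without CL+CX replicate 1 or 2 or NC replicate 2). For CL+CX minus CL, 2 were past the threshold, with 1 under no filter, 0 with the β-actin covariate, where 1 of all probe sets was called, and 2 to 4 with 1 mouse left out. In CL minus NC, 3 passed, with 2 to 3 when 1 mouse was left out. Cdkn1a was lower in CL+CX than in NC with an adjusted p under 0.05 in every alternative. Gadd45b at 1450971_at lost its call in 15 of 26 alternatives and Trp53inp1 in 13 of 26, Phlda3 lost its in 9 of 24, Ccng1 in CL+CX minus NC lost its in 7 of 25 at 1450017_at and 1 of 26 at 1420827_a_at, and Gadd45a in CL+CX minus NC gained one in 5 of 24. The cause was not tested.

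Without scaling, the median difference over the array shifted by 0.315 in CL minus NC, 0.245 in CL+CX minus NC and -0.0703 in CL+CX minus CL, and Gadd45b 1420197_at (0.24) and Trp53inp1 (0.16) in CL minus NC and Mdm2 1423605_a_at (0.23) and 1427718_a_at (0.13) in CL+CX minus NC changed sign, none of them called. With the β-actin covariate Mdm2 1423605_a_at changed sign in CL+CX minus NC (0.083). With 1 mouse left out, sign changes were seen in CL+CX minus NC for Mdm2 1423605_a_at (-0.12 to 0.066) and 1427718_a_at (-0.21 to 0.0090), Btg2 1416250_at (-0.16 to 0.67) and 1448272_at (-0.25 to 0.36) and Phlda3 (-0.016 to 0.27). Such changes in CL minus NC were seen for Gadd45b 1450971_at (-0.15 to 0.23), 1449773_s_at (-0.017 to 0.36) and 1420197_at (-0.23 to 0.084), Gadd45g (-0.41 to 0.40) and Cdkn1a 1421679_a_at (-0.043 to 0.46). None of these was called.

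Over all probe sets, 1991 were called in CL+CX minus NC, 605 with no filter, 663 with the β-actin covariate and 3319 with only 2 groups fitted. In CL minus NC these counts were 2491, 1127, 1139 and 1816, and in CL+CX minus CL they were 637, 38, 1 and 196, with 81 from the signals as deposited.

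Mice of equal replicate number were fitted without pairing. The correlation of their deviations was -0.0142 to 0.135 in CL minus NC, -0.0906 to 0.0597 in CL+CX minus NC and -0.132 to 0.0452 in CL+CX minus CL. In CL minus NC 3 of 5 mice were most like the mouse of their own number, and 0 of 5 in each of the other comparisons. A weak link between equal numbers in CL and NC is thus not excluded. With the replicate block, Phlda3 in CL minus NC (adjusted p = 0.0524) and Trp53inp1 in CL+CX minus NC (0.0510) were no longer called and Gadd45a in CL+CX minus NC was (0.0297), and the calls over all probe sets were 2146, 1671 and 366.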
